A study of Mus musculus with 18 samples.

Results

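The early transcriptional response to interleukin 4 (IL-4) was measured in mouse bone marrow-derived macrophages that carry 1 functional and 1 disrupted copy of the transcription factor gene Irf4. The comparison sets the 3 arrays labelled Irf4+/- IL4 4h (letters A, B and C) against the 3 arrays labelled Irf4+/- Mock, which are 6 of the 18 arrays of the series. Arrays were chosen by their titles, with no measured value involved. IL-4-treated cells received recombinant mouse IL-4 at 10 ng/ml for 4 h, and mock cells were cultured without it, for 18 h by the series' design text, while the treatment note could also be read as 4 h. The other 12 arrays hold Irf4+/- cells after 18 h of IL-4 and Irf4-/- cells under the same conditions. Each letter is a separate experiment on littermates of the C57BL6/J strain, and cells of several animals of both sexes, aged 8 to 12 weeks, were pooled and grown with the growth factor CSF1, so 1 array stands for a pool. There was no wild-type group, and a mock culture of 4 h is not analysed here, so with an 18 h mock the effects of IL-4 and of the shorter incubation cannot be told apart.

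IL-4 is a cytokine of T helper 2 cells, basophils and eosinophils. It binds its receptor alpha chain together with the common gamma chain or with the IL-13 receptor alpha 1 chain. Janus kinases on the receptor then phosphorylate STAT6, a transcription factor held in the cytoplasm until then, which enters the nucleus and binds paired TTC and GAA half-sites. In macrophages this path leads to the alternatively activated state, known for arginase, lectin receptors, chemokines that attract eosinophils, and dampened inflammatory gene expression. IRF4 is itself a target of IL-4 in macrophages.

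A level below is the log2 intensity of a probe minus the 75th percentile of its array, and a change is the level with IL-4 minus the level in mock, with its standard error. Values of a gene are given in the order A, B, C. Changes were tested with limma over all 18 arrays with the experiment letter as a block, and "rose" and "fell" are used for an adjusted p under 0.05. For a gene with no array of 1 group well above background, the fold is given as "at least", measured against the dimmest signals above background. Between 64.8% and 73.9% of the 43379 spots were well above background on the 6 arrays, and each experiment's pair was scanned on 1 slide. All 18 macrophage markers, among them Csf1r, Adgre1 and Itgam, were well above background on every array of both groups. Their summed level lay between 1503 and 2067 with IL-4 and between 1637 and 1973 in mock, as multiples of the 75th percentile. On the same scale the T, NK and B cell markers summed to 5.00 to 26.9 with IL-4 and 6.11 to 38.8 in mock, and those of basophils, mast cells and eosinophils to 1.31 to 2.17 with IL-4 and 1.18 to 1.66 in mock. Sums were larger for markers of dendritic cells (125 to 183 with IL-4 and 117 to 160 in mock, with Bst2 the brightest), monocytes (61.2 to 112 with IL-4 and 61.1 to 126 in mock) and erythroid, megakaryocyte and stromal cells (63.2 to 83.9 with IL-4 and 61.4 to 99.7 in mock, with Pf4 the brightest), and for neutrophils they were 16.5 to 31.4 with IL-4 and 21.2 to 24.3 in mock. Of the 12 dendritic cell markers, 8 exceeded background on all 3 IL-4 arrays and 9 did so on all 3 mock arrays. Xcr1 and Zbtb46 were the brightest of them after Bst2. Siglech stayed at background in both groups, and Clec9a did so with IL-4. Of 20 T, NK and B cell markers, 11 exceeded background on all 3 IL-4 arrays and 13 on all 3 mock arrays. For basophils, mast cells and eosinophils these counts were 12 and 12 of 20, and for neutrophils 10 and 10 of 12. For monocytes they were 9 and 8 of 9, and for erythroid, megakaryocyte and stromal cells 11 and 11 of 19. The part of these cells in the results was not tested. In bulk RNA, a change in the share of a cell type and a change in RNA per cell cannot be told apart.

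Of 15439 genes tested, 2815 changed (18.2%). Of these, 1549 rose (10.0% of genes tested) and 1266 fell (8.20%). Over all genes tested, the differences within an experiment had a Pearson correlation of 0.76 to 0.77 between experiments, which is across genes and not over replicates. Rises were larger than falls: 465 genes rose (3.01% of genes tested) and 419 fell (2.71%) at least 2-fold, 150 rose (0.972%) and 51 fell (0.330%) at least 4-fold, and 42 rose and 0 fell at least 16-fold. Each gene is counted by its brightest kept probe. The other kept probe of Pilra and that of Pilrb2 had far larger negative changes, given below. The median change over all genes tested was -0.02. The groups did not overlap on any array for 2518 genes (16.3%), of which 1280 were higher with IL-4 (8.29%). Without the block 658 genes changed, 359 up and 299 down (4.26% of genes tested), and all 658 were among the 2815. Experiments differed in level for many genes, and levels of the same experiment deviated together (correlation between the IL-4 and mock arrays of an experiment 0.775 to 0.879). Where a gene's call was lost without the block, its adjusted p from that fit stands beside it. With normexp background correction in place of the scanner's own, 99 of the 206 called genes named by rule were not called, and where the change also moved by over 1.5 times, its value stands beside the gene. Txk, Spry3, Ifnb1, Rfx5, Per3, Kit and Ccr3 had positive changes there, as did Cxcl11, which was not named by the rule. Some rises that kept their call shrank with normexp too, from 11.55 to 6.89 for Retnla and 8.74 to 5.47 for Arg1. Msx3 went from 7.54 to 4.27, Cdh1 from 6.50 to 4.31 and Pdcd1lg2 from 6.36 to 4.25. Slc7a2 went from 5.11 to 3.23 and Cldn11 from 5.04 to 2.86. Such values are not repeated beside these genes. Calls were also remade with each of the 6 arrays left out, written as IL-4 A or mock B, and the number of these fits without the call follows with the highest adjusted p.

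**Figure D1:**
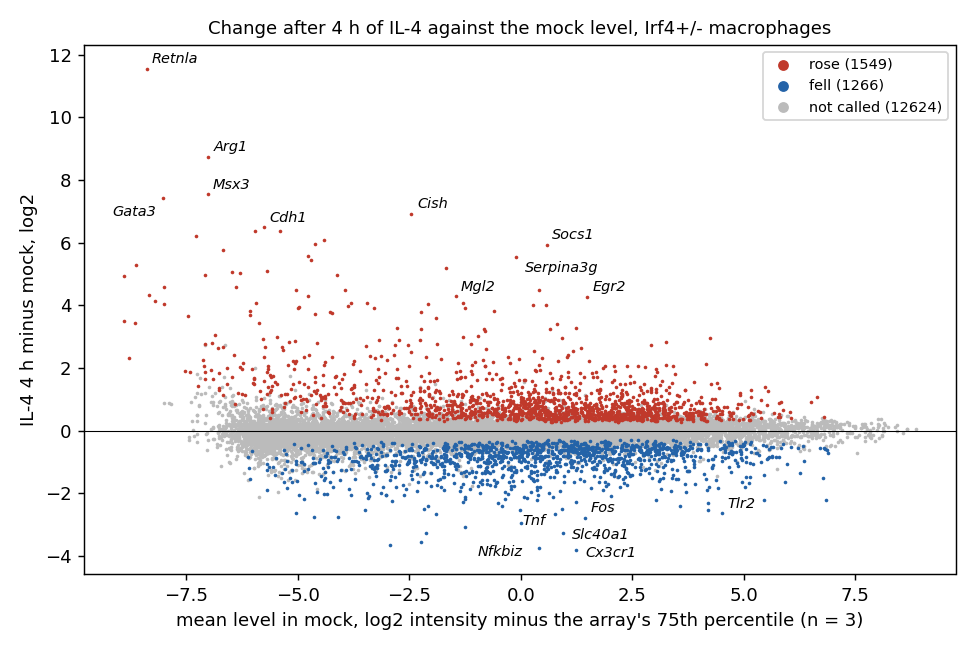
Change of each of 15439 genes (IL-4 4 h minus mock, log2) against its mean level in mock (n = 3 arrays), with 1549 rises in red, 1266 falls in blue and genes not called in grey. The rises extend to 11.55 and the falls to -3.81, and many of the largest rises, such as Retnla and Arg1, are at the left, while Socs1 and Serpina3g lie near 0 on the axis of mock levels.

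Of the 15 largest rises, 12 were in genes with a mean level below -4 in mock, while Cish, Socs1 and Serpina3g were brighter. Retnla encodes a secreted resistin-like protein and is a classical mark of alternatively activated macrophages. Its level was 4.17, 3.04 and 2.24 with IL-4, against -8.16, -8.17 and -8.85 in mock, and none of the 3 mock arrays was well above background. The change was 11.55 ± 0.38, adjusted p = 4.3e-09, at least 982-fold. Arg1 encodes arginase, which splits arginine into ornithine and urea, and had 1.54, 0.84 and 2.80 with IL-4, against -7.97, -6.69 and -6.38 in mock. Its change was 8.74 ± 0.65, adjusted p = 1.93e-06, well above background on 1 of 3 mock arrays. IL-4 and mock arrays lay far apart for both genes, and the spread within a group was small beside the gap.

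A pair of developmental transcription factor genes followed. Msx3, a homeobox gene known from the dorsal neural tube, had 0.68, 0.02 and 0.88 with IL-4, against -5.22, -8.35 and -7.48 in mock (change 7.54 ± 0.51, adjusted p = 9.31e-07, well above background on 1 of 3 mock arrays). Gata3, a zinc finger factor known for driving T helper 2 cells, had 0.87, -1.71 and -0.99 with IL-4, against -6.83, -8.18 and -9.09 in mock (change 7.42 ± 0.58, adjusted p = 3.09e-06, at least 70.5-fold, 3.44 and not called with normexp). All IL-4 arrays were well above background for both. Cdh1, which encodes the adhesion protein E-cadherin, had 1.40, -0.32 and 1.14 with IL-4, against -5.03, -7.20 and -5.05 in mock (change 6.50 ± 0.36, adjusted p = 2.13e-07, well above background on 2 of 3 mock arrays). Pdcd1lg2, which encodes the checkpoint ligand PD-L2, had 0.85, 0.20 and 0.18 with IL-4, against -6.14, -4.69 and -7.02 in mock (change 6.36 ± 0.52, adjusted p = 4.91e-06, well above background on 2 of 3 mock arrays). For each of these 4 genes the lowest IL-4 array stood above the highest mock array.

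The rest of the 15 largest rises span signalling, lipid and transport functions. Edn1, the precursor gene of the vasoconstrictor endothelin 1, changed by 6.20 ± 0.77, adjusted p = 0.000124, at least 52.0-fold, 3.13 and not called with normexp. Rasgrp1, a diacylglycerol-dependent activator of Ras, had 2.08, 1.31 and 1.68 with IL-4, against -4.16, -3.75 and -5.32 in mock (change 6.10 ± 0.49, adjusted p = 4.1e-06, 2.42 on its other kept probe). Mboat2, an acyltransferase of membrane phospholipids, changed by 5.77 ± 0.48, adjusted p = 5.6e-06, well above background on 2 of 3 mock arrays, 3.00 and not called with normexp, and the water and glycerol channel gene Aqp3 by 5.56 ± 0.63, adjusted p = 6.19e-05. Serpina3g, an intracellular inhibitor of cysteine proteases, had 5.94, 5.17 and 5.18 with IL-4, against 0.34, 0.24 and -0.92 in mock (change 5.54 ± 0.37, adjusted p = 9.31e-07). Its neighbours in the same serpin family, Serpina3f (5.45 ± 0.40, adjusted p = 1.93e-06) and Serpina3n (3.44 ± 0.39, adjusted p = 5.59e-05, at least 2.97-fold, 1.27 and not called with normexp), rose too. The sequences of this family are alike, so how much of each signal comes from another member was not tested. The membrane protein gene Tmem26 (5.95 ± 0.38, adjusted p = 6.75e-07) and the WD-repeat gene Wdr86 (6.37 ± 0.53, adjusted p = 5.61e-06) complete the group, with Cish and Socs1, which are described with the IL-4 receptor below.

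Falls were smaller and began from higher levels. Cx3cr1, the receptor for fractalkine, had -1.67, -3.12 and -2.91 with IL-4, against 2.48, 0.63 and 0.61 in mock (change -3.81 ± 0.30, adjusted p = 3.89e-06, -2.45 on its other kept probe). Nfkbiz, a nuclear cofactor of NF-kB needed for secondary inflammatory genes, had -4.13, -2.78 and -3.07 with IL-4, against 0.01, 0.60 and 0.64 in mock (change -3.75 ± 0.41, adjusted p = 4.88e-05). Slc40a1, which encodes ferroportin, the iron exporter of cells, had -2.96, -1.57 and -2.42 with IL-4, against 0.45, 1.85 and 0.54 in mock (change -3.27 ± 0.33, adjusted p = 2.56e-05). In all 3 genes every IL-4 array lay below every mock array. Tlr2, a receptor for bacterial lipoproteins, was bright in mock and had 1.82, 2.39 and 1.43 with IL-4, against 4.68, 4.72 and 4.17 in mock (change -2.64 ± 0.29, adjusted p = 4.29e-05). Tal2, a basic helix-loop-helix factor, changed by -3.54 ± 0.31, adjusted p = 7.42e-06, well above background on 2 of 3 IL-4 arrays, -0.85 and not called with normexp, the nucleosome assembly gene Nap1l2 by -3.08 ± 0.26, adjusted p = 5.8e-06, -1.34 and not called with normexp and Sncaip, which encodes a partner of alpha-synuclein, by -2.95 ± 0.41, adjusted p = 0.00028. Smaller levels lay behind the kinase gene Txk (-2.76 ± 0.49, adjusted p = 0.00154, at least 4.07-fold, 0.19 and not called with normexp) and the Sprouty family gene Spry3 (-2.64 ± 0.50, adjusted p = 0.00250, 0.0886 without the block, at least 3.16-fold, 0.46 and not called with normexp), both not well above background on any IL-4 array. Kcnj2, an inward rectifier potassium channel, changed by -2.65 ± 0.27, adjusted p = 2.45e-05, -1.05 and not called with normexp and the RNA-binding protein gene Mex3b by -2.54 ± 0.31, adjusted p = 0.000111.

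**Figure D2:**
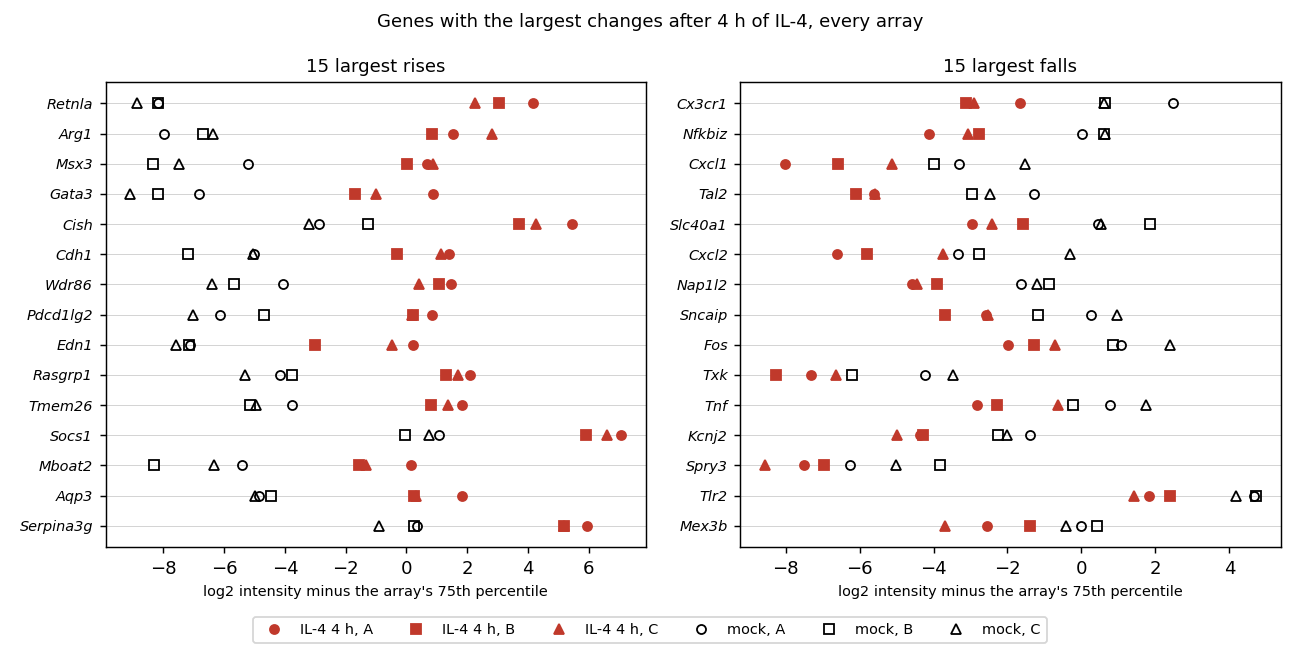
Level on every array (log2 intensity minus the 75th percentile of the array) of the 15 genes with the largest rises and the 15 with the largest falls, with IL-4 4 h as filled red and mock as open symbols and a shape for each experiment. In each row shown the 3 IL-4 arrays lie on 1 side of the 3 mock arrays.

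Genes of the IL-4 receptor path changed in both directions, and inhibitors of the path rose most. Of the receptor and JAK-STAT genes, 2 of 21 tested members rose and 4 fell (28.6% called against 18.2% of all genes, median log2 change -0.13). Il4ra, the receptor alpha chain, had 3.85, 4.16 and 4.77 with IL-4, against 3.00, 2.94 and 2.81 in mock (change 1.35 ± 0.25, adjusted p = 0.00215), and the kinase gene Jak2 (1.55 ± 0.14, adjusted p = 9.78e-06) also rose. Il13ra1, the partner chain of the second receptor type, fell (-1.11 ± 0.20, adjusted p = 0.00201, -0.51 and not called with normexp), as did Stat4 (-1.56 ± 0.30, adjusted p = 0.00261, -0.98 and not called with normexp) and Stat6 (-0.49 ± 0.10, adjusted p = 0.00471, 0.0561 without the block, -0.76 to -0.68 on its 2 other kept probes), the gene of the factor that IL-4 activates. Of the feedback genes, 5 of 13 tested members rose and 1 fell (46.2% called against 18.2% of all genes, median log2 change 0.10). Socs1, whose protein blocks Janus kinases, had 7.06, 5.90 and 6.60 with IL-4, against 1.07, -0.04 and 0.73 in mock (change 5.93 ± 0.38, adjusted p = 6.75e-07). Cish, another member of the SOCS family, had 5.45, 3.70 and 4.26 with IL-4, against -2.87, -1.27 and -3.20 in mock (change 6.92 ± 0.81, adjusted p = 7.54e-05). Every IL-4 array of both genes was above every mock array. Socs2 (4.31 ± 0.48, adjusted p = 5.11e-05), Socs5 (1.62 ± 0.18, adjusted p = 5.7e-05) and the phosphatase gene Ptpn2 (1.12 ± 0.17, adjusted p = 0.000549, 0.0857 without the block) rose as well.

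Genes known as IL-4 effectors of macrophages rose where they changed: 14 of 28 tested members rose and 0 fell (median log2 change 1.40). After Retnla, Arg1, Cdh1 and Pdcd1lg2 came Slc7a2, which encodes a transporter of arginine and other cationic amino acids and had -0.43, -0.90 and -0.39 with IL-4, against -5.31, -6.14 and -5.59 in mock (change 5.11 ± 0.24, adjusted p = 1.07e-07). Ccl24, a chemokine that attracts eosinophils, had 2.15, 0.19 and 0.14 with IL-4, against -3.86, -3.53 and -5.01 in mock (change 4.96 ± 0.64, adjusted p = 0.000152). Experiment A was the highest of the IL-4 arrays for this gene, and mock arrays were all lower. Mgl2, a galactose-binding lectin, had 2.48, 2.55 and 3.47 with IL-4, against -1.68, -1.81 and -0.89 in mock (change 4.29 ± 0.23, adjusted p = 2.05e-07). Flt1, a receptor for VEGF, had 4.73, 5.36 and 4.68 with IL-4, against 0.16, 1.00 and 0.09 in mock (change 4.50 ± 0.24, adjusted p = 1.78e-07, 2.11 to 6.22 on its 3 other kept probes). The mannose receptor gene Mrc1 was already bright in mock and had 5.15, 5.99 and 6.15 with IL-4, against 3.54, 4.46 and 4.80 in mock (change 1.50 ± 0.16, adjusted p = 4.78e-05).

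Other well-known genes of this class were not called at 4 h. Chil3, a chitinase-like protein, had 3.69, 1.82 and 2.19 with IL-4, against 1.90, 1.09 and 1.33 in mock (change 1.13 ± 0.45, adjusted p = 0.108), with the groups overlapping. Ccl17, a ligand of the receptor CCR4, was dim and had -2.74, -4.55 and -4.75 with IL-4, against -4.17, -4.81 and -5.44 in mock (change 0.79 ± 0.28, adjusted p = 0.0653). Pparg, a nuclear receptor of lipid metabolism, had 2.92, 2.92 and 2.78 with IL-4, against 3.02, 2.32 and 2.70 in mock (change 0.19 ± 0.25, adjusted p = 0.666). Its coactivator gene Ppargc1b did rise (1.85 ± 0.27, adjusted p = 0.000414). The chemokine gene Ccl22 did not pass the filter on dim probes and was not tested.

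Promoter windows of RefSeq (assembly GRCm38.p6, 250 bases before to 50 after a start site) were searched for the STAT6 type of site, TTC and GAA with a spacer of 4 bases (TTCNNNNGAA, both strands). Of 150 genes that rose at least 4-fold, 114 had a window and 14 of these held the site (12.3%). Of 51 genes that fell at least 4-fold, 37 had a window and 3 held it (8.11%). Over all genes tested it was in 786 of 11689 (6.72%). Windows to show were chosen among named genes that rose and hold the site, in order of the rise, with windows on 1 chromosome left out. Dkc1, 1 of the genes chosen, rose by less than 4-fold and is not among the 14. The windows of the 6 genes chosen are shown because they place the site in genes described here, with the site in capitals. They belong to Retnla (chr16:48842359-48842658, plus strand), Pdcd1lg2 (chr19:29410669-29410968, plus strand), Edn1 (chr13:42301226-42301525, plus strand), Tmem26 (chr10:68723496-68723795, plus strand), Tfec (chr6:16898392-16898691, minus strand) and Dkc1 (chrX:75095604-75095903, plus strand).
Retnla: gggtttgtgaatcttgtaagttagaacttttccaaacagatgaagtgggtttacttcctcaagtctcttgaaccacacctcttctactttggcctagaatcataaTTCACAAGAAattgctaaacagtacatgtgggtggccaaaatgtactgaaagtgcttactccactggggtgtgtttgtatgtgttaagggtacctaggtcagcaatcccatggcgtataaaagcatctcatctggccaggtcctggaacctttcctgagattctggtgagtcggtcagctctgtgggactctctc
Pdcd1lg2: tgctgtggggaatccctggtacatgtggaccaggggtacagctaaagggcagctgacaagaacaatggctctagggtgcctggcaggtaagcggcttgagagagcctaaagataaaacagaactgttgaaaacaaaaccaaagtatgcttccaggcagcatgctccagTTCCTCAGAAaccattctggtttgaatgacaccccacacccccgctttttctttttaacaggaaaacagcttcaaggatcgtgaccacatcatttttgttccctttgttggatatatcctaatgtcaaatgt
Edn1: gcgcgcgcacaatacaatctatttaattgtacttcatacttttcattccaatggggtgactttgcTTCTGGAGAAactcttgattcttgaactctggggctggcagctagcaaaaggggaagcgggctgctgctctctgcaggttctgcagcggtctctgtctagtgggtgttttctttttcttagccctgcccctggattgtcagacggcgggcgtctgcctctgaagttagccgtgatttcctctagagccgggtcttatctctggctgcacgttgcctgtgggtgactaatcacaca
Tmem26: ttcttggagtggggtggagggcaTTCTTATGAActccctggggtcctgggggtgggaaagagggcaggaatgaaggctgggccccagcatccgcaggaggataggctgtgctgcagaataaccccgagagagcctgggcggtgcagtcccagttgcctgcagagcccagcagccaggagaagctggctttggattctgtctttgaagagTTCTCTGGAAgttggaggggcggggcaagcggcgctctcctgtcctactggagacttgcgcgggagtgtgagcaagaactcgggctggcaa
Tfec: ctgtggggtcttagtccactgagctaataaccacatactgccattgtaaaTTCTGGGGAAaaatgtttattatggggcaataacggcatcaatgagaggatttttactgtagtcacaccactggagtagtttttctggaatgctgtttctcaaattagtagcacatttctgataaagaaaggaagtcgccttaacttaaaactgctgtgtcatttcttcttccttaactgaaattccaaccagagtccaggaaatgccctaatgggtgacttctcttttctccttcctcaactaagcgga
Dkc1: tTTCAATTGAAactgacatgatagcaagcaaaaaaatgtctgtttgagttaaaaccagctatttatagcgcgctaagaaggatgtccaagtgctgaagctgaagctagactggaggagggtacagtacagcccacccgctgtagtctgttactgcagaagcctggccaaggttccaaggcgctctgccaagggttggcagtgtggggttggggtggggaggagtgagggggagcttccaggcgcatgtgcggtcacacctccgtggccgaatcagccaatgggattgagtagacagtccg
The first base of the site lies 145 bases before the start in Retnla and 82 before it in Pdcd1lg2. Tmem26 holds 2 sites, at 227 and 41 bases before the start. The spacing of 3 bases that other STATs are known to prefer (TTCNNNGAA) was sought in the same way. Of genes with a window, 9.65% of the large rises, 5.41% of the large falls and 8.35% of all held it. Cish, Rasgrp1 and Serpina3g hold that spacing. The EGR motif GCGGGGGCG was in 10.5%, 2.70% and 5.61% of these genes, the AP-1 motif TGACTCA in 7.89%, 2.70% and 4.88%, and the kappa B motif GGGACTTTC in 0.877%, 0.00% and 0.453%. Both strands were searched, a gene can have more than 1 window, a window can hold more than 1 motif, and the shares are descriptions without a test.

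Among transcription factors, the AP-1 partner and EGR genes that changed mostly rose. Of the EGR, AP-1 and BATF factors, 4 of 17 tested members rose and 1 fell (29.4% called against 18.2% of all genes, median log2 change 0.29). Egr2, a zinc finger factor of the immediate early class, had 5.85, 5.56 and 5.85 with IL-4, against 1.79, 1.18 and 1.46 in mock (change 4.27 ± 0.24, adjusted p = 2.51e-07). Batf3, known for its role in conventional dendritic cells, had 4.99, 3.84 and 4.02 with IL-4, against 0.38, 0.29 and 0.14 in mock (change 4.01 ± 0.39, adjusted p = 1.99e-05). Batf (1.55 ± 0.23, adjusted p = 0.000505) and Fosl2 (2.16 ± 0.26, adjusted p = 0.000113, 1.07 on its other kept probe) rose too. Fos fell: its level was -1.99, -1.28 and -0.72 with IL-4, against 1.06, 0.85 and 2.40 in mock (change -2.77 ± 0.36, adjusted p = 0.000169). Within the AP-1 family, then, Fos was lower on every IL-4 array while Batf, Batf3 and Fosl2 were higher on every one.

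Of 9 tested IRF genes, 2 rose and 1 fell (33.3% called against 18.2% of all genes). Irf4 had 2.26, 1.69 and 1.07 with IL-4, against -1.15, -0.36 and -1.80 in mock (change 2.78 ± 0.30, adjusted p = 4.88e-05). Irf2 (0.58 ± 0.15, adjusted p = 0.0188, 0.0949 without the block) rose and Irf5 (-0.50 ± 0.15, adjusted p = 0.0351, 0.204 without the block) fell. The Irf4 probe gave 2.11, 1.50 and 1.57 in samples labelled Irf4-/- after 4 h of IL-4, against -0.97, -0.53 and -0.81 in their mock samples. Signal from this probe was thus present in both genotypes, and its place relative to the disrupted part of the gene was not analysed here, so it checks no genotype label. With each of the 6 arrays left out in turn, calls were lost for Irf2 (4 fits, 0.098 without IL-4 B) and Irf5 (5 fits, 0.125 without mock A).

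Factors of growth and differentiation split. Of the Myc, KLF and related genes, 6 of 25 tested members rose and 7 fell (52.0% called against 18.2% of all genes, median log2 change -0.26, 4 and 2 called without the block). Klf4, a factor of macrophage and epithelial differentiation, had 5.93, 5.20 and 4.91 with IL-4, against 3.80, 2.76 and 3.20 in mock (change 2.10 ± 0.18, adjusted p = 5.96e-06). The aryl hydrocarbon receptor gene Ahr rose (3.24 ± 0.42, adjusted p = 0.000158), as did Bhlhe40 (1.90 ± 0.14, adjusted p = 1.63e-06) and Id1 (2.22 ± 0.49, adjusted p = 0.00667, 0.396 without the block). The nuclear receptor gene Nr4a1 fell (-2.00 ± 0.25, adjusted p = 0.000123). Myc, the driver of growth genes, had 2.26, -0.44 and 3.05 with IL-4, against 0.31, -1.93 and 1.87 in mock (change 1.54 ± 0.56, adjusted p = 0.0760). It was higher with IL-4 in each experiment but was not called, and the groups overlapped.

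Of developmental factors, 3 of 13 tested members rose and 2 fell (38.5% called against 18.2% of all genes, median log2 change -0.14). Besides Msx3 and Gata3 this included the Wnt effector gene Tcf7l2 (2.35 ± 0.22, adjusted p = 1.29e-05, 1.26 to 1.98 on its 3 other kept probes), and Lyl1 (-0.85 ± 0.13, adjusted p = 0.000505) fell with Tal2. Of macrophage lineage factors, 5 of 16 tested members rose and 1 fell (37.5% called against 18.2% of all genes, median log2 change 0.19). Tfec, a MITF family member largely restricted to macrophages, rose (2.31 ± 0.34, adjusted p = 0.000399), as did the shared GM-CSF and IL-3 receptor chain gene Csf2rb (1.22 ± 0.23, adjusted p = 0.00241, 0.49 to 0.86 on its 2 other kept probes) and the G-CSF receptor gene Csf3r (1.01 ± 0.18, adjusted p = 0.00183, 0.212 without the block). The oxysterol receptor gene Nr1h3 fell (-1.23 ± 0.20, adjusted p = 0.00103). Of 25 chromatin modifiers, 2 rose and 2 fell: Kdm6b (0.89 ± 0.29, adjusted p = 0.0459, 0.138 without the block), a histone H3K27 demethylase, Tet2 (0.48 ± 0.15, adjusted p = 0.0467, 0.261 without the block, 0.28 on its other kept probe), Dnmt1 (-0.73 ± 0.20, adjusted p = 0.0232, 0.158 without the block) and Hdac5 (-0.71 ± 0.16, adjusted p = 0.00651, 0.0541 without the block). The share of this list called (16.0%) was close to that of all genes. Calls lost in some of the 6 fits with 1 array left out were those of Kdm6b (4 fits, 0.211 without mock A), Tet2 (5 fits, 0.221 without mock A) and Dnmt1 (4 fits, 0.103 without mock C).

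Genes that build ribosomes rose as a broad group. Of the ribosome biogenesis genes, 30 of 40 tested members rose and 0 fell (median log2 change 0.81, 3 and 0 called without the block), all 40 had a positive change, and the medians in A, B and C were 0.94, 0.64 and 0.81. Dkc1, the pseudouridine synthase of box H/ACA particles, had -0.96, -2.38 and -1.00 with IL-4, against -2.79, -4.16 and -2.57 in mock (change 1.72 ± 0.27, adjusted p = 0.000732, 0.0839 without the block). Its partner gene Gar1 had 2.19, 0.74 and 1.82 with IL-4, against 0.78, -0.56 and 0.70 in mock (change 1.28 ± 0.17, adjusted p = 0.000199, 0.258 without the block). The IL-4 array was above the mock array in each experiment, but the groups of Gar1 overlapped, since experiment B was low in both conditions. Rcl1 (1.42 ± 0.13, adjusted p = 8.12e-06, 0.115 without the block), Nop16 (1.29 ± 0.17, adjusted p = 0.000216, 0.142 without the block) and Tsr1 (1.28 ± 0.29, adjusted p = 0.00755, 0.190 without the block) also rose.

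Genes of nucleotide and amino acid supply that were called all rose, but the called shares were closer to that of all genes. Of the purine and pyrimidine synthesis genes, 6 of 21 tested members rose and 0 fell (28.6% called against 18.2% of all genes, median log2 change 0.39, 2 and 0 called without the block). Prps1, which makes the ribose donor of nucleotide synthesis, had 4.49, 3.66 and 3.54 with IL-4, against 1.97, -0.04 and 0.85 in mock (change 2.97 ± 0.24, adjusted p = 4.83e-06). Uck2, the uridine and cytidine salvage kinase, had 4.81, 3.34 and 3.85 with IL-4, against 2.00, 0.13 and 1.95 in mock (change 2.64 ± 0.22, adjusted p = 4.91e-06). Every IL-4 array lay above every mock array for both. Ctps (1.24 ± 0.37, adjusted p = 0.0338, 0.670 without the block), Ppat (0.70 ± 0.15, adjusted p = 0.00498, 0.652 without the block) and Dhodh (0.62 ± 0.10, adjusted p = 0.00106, 0.162 without the block) rose by less. Of the amino acid supply and tRNA synthetase genes, 8 of 37 tested members rose and 0 fell (21.6% called against 18.2% of all genes, median log2 change 0.34, 1 and 0 called without the block) and 36 had a positive change. Rars (1.01 ± 0.13, adjusted p = 0.000171), Slc1a4 (0.88 ± 0.29, adjusted p = 0.0493, 0.139 without the block, 1.36 on its other kept probe), Iars (0.68 ± 0.19, adjusted p = 0.0241, 0.0958 without the block, 0.17 to 0.41 on its 2 other kept probes), Yars (0.63 ± 0.19, adjusted p = 0.0359, 0.356 without the block) and Tars (0.56 ± 0.16, adjusted p = 0.0270, 0.513 without the block) led them. The amino acid supply list had 1 call without mock B. Leaving out 1 array at a time ended the call of Ctps (4 fits, 0.163 without mock B), Slc1a4 (5 fits, 0.168 without mock B), Iars (4 fits, 0.114 without IL-4 C) and Yars (5 fits, 0.154 without mock B). Tars (4 fits, 0.138 without IL-4 A) lost its call too.

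Arginine and polyamine genes were called in 1 direction: 5 of 23 tested members rose and 0 fell (21.7% called against 18.2% of all genes, median log2 change 0.18, 3 and 0 called without the block). After Arg1 and Slc7a2 came Gatm, which makes the creatine precursor from arginine and had 2.85, 2.50 and 2.61 with IL-4, against 1.35, 0.70 and 0.70 in mock (change 1.74 ± 0.17, adjusted p = 1.74e-05). Srm, spermidine synthase, had 3.08, 1.26 and 3.20 with IL-4, against 1.45, -0.61 and 1.79 in mock (change 1.64 ± 0.25, adjusted p = 0.000553, 0.368 without the block), and Odc1 (0.76 ± 0.19, adjusted p = 0.0118, 0.340 without the block), the entry enzyme of polyamine synthesis, rose by less. The groups of Srm and Odc1 overlapped. Of the unfolded protein response genes, 5 of 30 tested members rose and 0 fell (16.7% called against 18.2% of all genes, median log2 change 0.28, 1 and 0 called without the block). Pdia4 (1.61 ± 0.23, adjusted p = 0.000337), a disulfide isomerase of the endoplasmic reticulum, led Manf (0.58 ± 0.15, adjusted p = 0.0132, 0.578 without the block), Ern1 (0.50 ± 0.10, adjusted p = 0.00473, 0.0926 without the block), Xbp1 (0.50 ± 0.14, adjusted p = 0.0253, 0.413 without the block) and Syvn1 (0.33 ± 0.10, adjusted p = 0.0329, 0.481 without the block, -0.00 on its other kept probe, 0.18 and not called with normexp). Of oxidative phosphorylation and TCA cycle genes, 6 of 41 tested members rose and 0 fell (14.6% called against 18.2% of all genes, median log2 change 0.29, 0 and 0 called without the block) and 39 had a positive change. Fumarase, Fh1 (1.12 ± 0.14, adjusted p = 0.000122, 0.0884 without the block), and Idh3a (0.84 ± 0.17, adjusted p = 0.00351, 0.461 without the block) rose most, before Cycs (0.59 ± 0.15, adjusted p = 0.0143, 0.599 without the block), Cox5a (0.45 ± 0.14, adjusted p = 0.0377, 0.687 without the block, 0.24 on its other kept probe) and Ndufv2 (0.36 ± 0.10, adjusted p = 0.0196, 0.723 without the block, 0.21 and not called with normexp). The unfolded protein response list had 2 calls without IL-4 A or mock B. The oxidative phosphorylation list had 2 calls without IL-4 A or IL-4 B or mock B and 10 calls without IL-4 C. In fits without 1 of the 6 arrays no call was made for Odc1 (3 fits, 0.0655 without mock B), Manf (2 fits, 0.0734 without mock B), Xbp1 (3 fits, 0.139 without IL-4 A) and Syvn1 (4 fits, 0.137 without IL-4 B). Cycs (4 fits, 0.0763 without mock B), Cox5a (5 fits, 0.157 without IL-4 B) and Ndufv2 (3 fits, 0.0846 without mock B) lost theirs too.

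**Figure D3:**
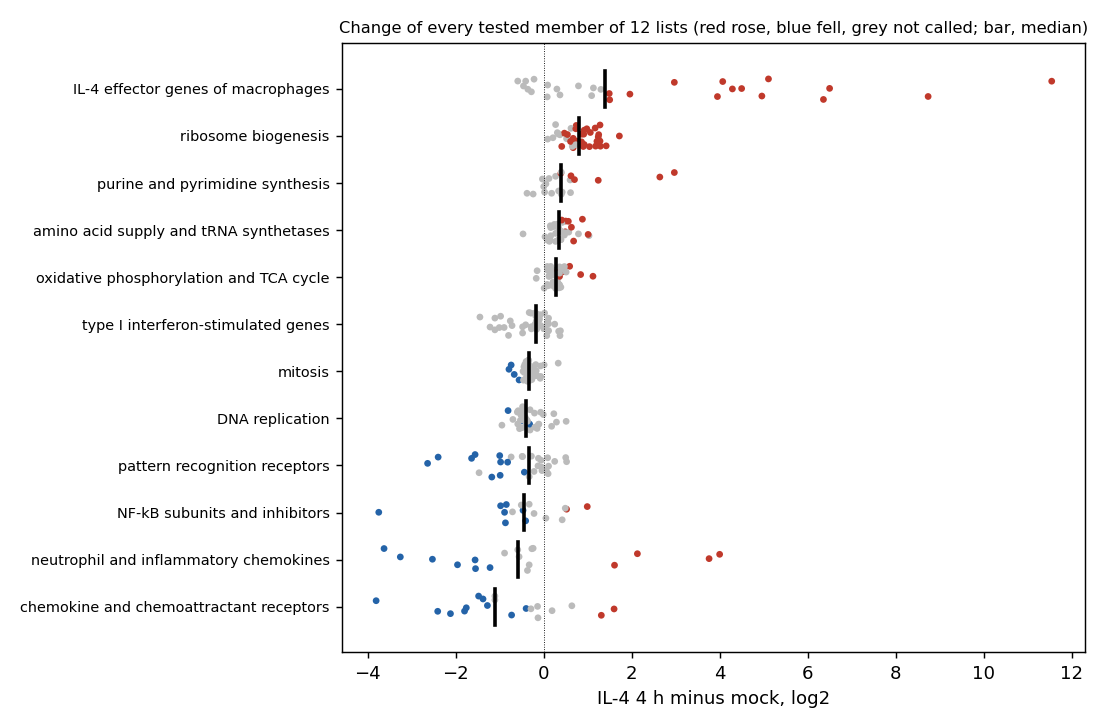
Change of every tested member of 12 gene lists (IL-4 4 h minus mock, log2), red where it rose, blue where it fell and grey where not called, with the list's median as a bar. The 40 ribosome biogenesis genes all lie right of 0, and the median of the chemoattractant receptors is -1.11.

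Cell cycle genes lay slightly lower and few were called. Of DNA replication genes, 0 of 38 tested members rose and 3 fell (7.89% called against 18.2% of all genes, median log2 change -0.40, 0 and 0 called without the block) and 34 had a negative change. The licensing factor gene Cdt1 (-0.81 ± 0.22, adjusted p = 0.0196, 0.101 without the block) fell with Gins3 (-0.51 ± 0.15, adjusted p = 0.0274, 0.694 without the block) and Rfc1 (-0.32 ± 0.10, adjusted p = 0.0403, 0.500 without the block). Of mitosis genes, 0 of 38 tested members rose and 4 fell (10.5% called against 18.2% of all genes, median log2 change -0.33, 0 and 0 called without the block) and 36 had a negative change, with Anln (-0.79 ± 0.18, adjusted p = 0.00771, 0.433 without the block), Ndc80 (-0.74 ± 0.19, adjusted p = 0.0156, 0.383 without the block), Bub1b (-0.67 ± 0.17, adjusted p = 0.0159, 0.706 without the block) and Kif2c (-0.56 ± 0.17, adjusted p = 0.0373, 0.599 without the block) called. The shares called, 7.89% and 10.5%, were below the 18.2% of all genes. Among CDK inhibitors and G1 cyclins, 2 of 26 tested members rose and 5 fell (26.9% called against 18.2% of all genes, median log2 change -0.39, 1 and 1 called without the block). The inhibitor gene Cdkn2b had 2.02, -0.73 and 0.52 with IL-4, against -1.69, -2.71 and -2.41 in mock (change 2.88 ± 0.40, adjusted p = 0.000289), and Cdkn1a, which encodes p21, had 4.41, 4.21 and 5.07 with IL-4, against 3.29, 3.06 and 3.43 in mock (change 1.30 ± 0.16, adjusted p = 0.000117, 0.0547 without the block). E2f2 (-1.14 ± 0.19, adjusted p = 0.00105), Cdkn1c (-0.90 ± 0.28, adjusted p = 0.0397, 0.653 without the block) and Gadd45g (-0.90 ± 0.28, adjusted p = 0.0426, 0.233 without the block) fell. The DNA replication list had 0 calls without IL-4 A or IL-4 B or IL-4 C or mock C, 6 calls without mock B, a median of -0.59 without mock B and a median of -0.21 without mock C. The mitosis list had 1 call without IL-4 B or mock C and a median of -0.17 without mock C. The calls of Cdt1 (5 fits, 0.098 without mock C), Gins3 (4 fits, 0.137 without mock C), Rfc1 (6 fits, 0.163 without mock C) and Ndc80 (3 fits, 0.0844 without mock C) were not made in every fit with 1 array left out. Bub1b (4 fits, 0.08 without mock C), Kif2c (6 fits, 0.141 without mock C), Cdkn1c (5 fits, 0.178 without IL-4 B) and Gadd45g (3 fits, 0.204 without mock C) lost theirs too.

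Inflammatory genes that changed mostly fell. Of NF-kB subunits and inhibitors, 2 of 16 tested members rose and 7 fell (56.2% called against 18.2% of all genes, median log2 change -0.44, 0 and 2 called without the block). Nfkbiz was lowest, followed by Tnip1 (-0.98 ± 0.11, adjusted p = 6.45e-05, 0.0675 without the block), Nfkbie (-0.89 ± 0.15, adjusted p = 0.00110) and Ikbke (-0.87 ± 0.12, adjusted p = 0.000314, 0.329 without the block), and the subunit gene Rel (0.99 ± 0.24, adjusted p = 0.0117, 0.326 without the block) rose. Of inflammatory cytokines and enzymes, 0 of 11 tested members rose and 5 fell (45.5% called against 18.2% of all genes, median log2 change -0.62, 0 and 2 called without the block). Tnf had -2.82, -2.28 and -0.63 with IL-4, against 0.78, -0.23 and 1.75 in mock (change -2.67 ± 0.46, adjusted p = 0.00133), and the IL-4 arrays were all below the mock arrays. Il1b had -5.45, -4.31 and -6.51 with IL-4, against -3.47, -2.47 and -4.37 in mock (change -1.98 ± 0.55, adjusted p = 0.0233, 0.109 without the block, -0.11 and not called with normexp) with overlapping groups, and it was dim in both. The prostaglandin E synthase gene Ptges (-1.07 ± 0.17, adjusted p = 0.00063, -0.15 and not called with normexp), Ifnb1 (-1.03 ± 0.33, adjusted p = 0.0456, 0.288 without the block, 0.60 and not called with normexp) and Il18 (-0.62 ± 0.18, adjusted p = 0.0261, 0.110 without the block) fell too. Of 42 type I interferon-stimulated genes, 0 rose and 0 fell (median -0.18), and no member was called without the block either. Isg15, a ubiquitin-like member of that list, had 3.93, 4.40 and 4.09 with IL-4, against 4.57, 4.44 and 4.28 in mock (change -0.29 ± 0.45, adjusted p = 0.733). The NF-kB list had 4 calls without IL-4 A. The inflammatory cytokine and enzyme list had 2 calls without IL-4 A or IL-4 C. With each of the 6 arrays left out in turn, calls were lost for Rel (3 fits, 0.0671 without IL-4 B), Il1b (3 fits, 0.112 without mock B), Ifnb1 (6 fits, 0.182 without IL-4 A) and Il18 (5 fits, 0.136 without mock A).

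Chemokine genes changed in both directions. Of the neutrophil and inflammatory chemokines, 4 of 18 tested members rose and 7 fell (61.1% called against 18.2% of all genes, median log2 change -0.58, 1 and 5 called without the block). The neutrophil attractant gene Cxcl1 had -8.02, -6.59 and -5.12 with IL-4, against -3.32, -3.99 and -1.52 in mock (change -3.63 ± 0.70, adjusted p = 0.00268, well above background on 1 of 3 IL-4 arrays, -0.55 and not called with normexp). Cxcl2, a ligand of the same receptor, had -6.62, -5.80 and -3.75 with IL-4, against -3.33, -2.76 and -0.31 in mock (change -3.26 ± 0.69, adjusted p = 0.00524, 0.0820 without the block, -0.94 and not called with normexp). Cxcl10, known as an interferon-induced attractant of T cells, had 1.93, 1.82 and 1.27 with IL-4, against 4.64, 4.33 and 3.62 in mock (change -2.53 ± 0.51, adjusted p = 0.00376). All 3 were lower with IL-4 in each experiment. Ccl7, a ligand of CCR2 and CCR3, had 3.99, 3.17 and 6.57 with IL-4, against -0.98, -0.62 and 3.33 in mock (change 4.00 ± 0.61, adjusted p = 0.000528, 0.0663 without the block). Its level in experiment C was high with and without IL-4, and the groups overlapped. Ccl8, a neighbouring gene of the same cluster, had -1.73, -0.08 and 0.38 with IL-4, against -5.31, -3.42 and -3.98 in mock (change 3.76 ± 0.27, adjusted p = 1.68e-06). Named after their values were seen, the other members called were Ccl3 (-1.96, adjusted p = 4.88e-05), Ccl4 (-1.56, adjusted p = 0.000551), Cxcl11 (-1.55, adjusted p = 0.000966, 0.0959 without the block, 0.22 and not called with normexp) and Cx3cl1 (-1.22, adjusted p = 0.00103), which fell, and Ccl2 (2.13, adjusted p = 0.0282, 0.508 without the block) and Ccl12 (1.61, adjusted p = 0.0313, 0.521 without the block), which rose and lost their calls in 4 of the 6 fits with 1 array left out. The inflammatory chemokine list had a median of -0.34 without mock A and a median of -0.87 without mock B.

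Receptors for chemoattractants mostly fell where they changed: 2 of 19 tested members rose and 10 fell (63.2% called against 18.2% of all genes, median log2 change -1.11, 1 and 4 called without the block). After Cx3cr1 came the formyl peptide receptor genes Fpr1 (-2.41 ± 0.31, adjusted p = 0.000145, -0.66 and not called with normexp) and Fpr2 (-1.76 ± 0.22, adjusted p = 0.000122, 0.0541 without the block, -0.63 and not called with normexp), and S1pr1 (-2.12 ± 0.26, adjusted p = 0.000117, 0.151 without the block), a receptor of sphingosine 1-phosphate that guides exit from tissues. Ccr2, the monocyte receptor for CCL2, had 2.44, 2.93 and 1.87 with IL-4, against 4.25, 4.69 and 3.70 in mock (change -1.80 ± 0.16, adjusted p = 9.42e-06). Every IL-4 array was below every mock array for these 4 genes. Of pattern recognition receptors and adaptors, 0 of 29 tested members rose and 10 fell (34.5% called against 18.2% of all genes, median log2 change -0.33). After Tlr2 came Clec4e, which senses mycobacterial glycolipid and had 0.86, 0.86 and 1.81 with IL-4, against 3.63, 3.13 and 3.96 in mock (change -2.40 ± 0.30, adjusted p = 0.000121). Cd14, the coreceptor of TLR4 for lipopolysaccharide, had 4.35, 4.33 and 4.21 with IL-4, against 6.13, 5.75 and 5.93 in mock (change -1.64 ± 0.22, adjusted p = 0.000216). Nod2 (-1.56 ± 0.11, adjusted p = 1.45e-06) and Irak2 (-1.18 ± 0.16, adjusted p = 0.000263) fell as well. Tlr4 itself had 2.18, 2.56 and 2.23 with IL-4, against 1.89, 2.10 and 2.21 in mock (change 0.25 ± 0.14, adjusted p = 0.267) and was not called. Cd14 was also 1 of 2 macrophage markers that fell, with the phagocytic receptor gene Mertk (-1.10 ± 0.16, adjusted p = 0.000343, 0.748 without the block).

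The MHC class II and class I lists had medians near 0 at 4 h. Of MHC class II genes, 2 of 14 tested members rose and 2 fell (28.6% called against 18.2% of all genes, median log2 change 0.00, 0 and 0 called without the block). The transactivator gene Ciita had 1.06, 1.00 and -0.81 with IL-4, against 0.14, 0.34 and -1.98 in mock (change 0.92 ± 0.23, adjusted p = 0.0140, 0.769 without the block). H2-Aa, a class II chain, had 3.63, 2.55 and 1.28 with IL-4, against 3.73, 2.24 and 1.21 in mock (change 0.09 ± 0.17, adjusted p = 0.772), with large differences between experiments in both groups. H2-DMa (0.77 ± 0.16, adjusted p = 0.00392, 0.762 without the block) rose, and the promoter factor genes Rfx5 (-0.45 ± 0.12, adjusted p = 0.0158, 0.154 without the block, 0.16 and not called with normexp) and Rfxap (-0.36 ± 0.09, adjusted p = 0.0133, 0.503 without the block, -0.84 on its other kept probe) fell. Of 14 class I genes, Psmb10 (0.66 ± 0.18, adjusted p = 0.0210, 0.291 without the block) and Erap1 (0.36 ± 0.11, adjusted p = 0.0337, 0.795 without the block) rose. The share of this list called (14.3%) was below the 18.2% of all genes. Of costimulation and checkpoint ligands, 5 of 21 tested members rose and 2 fell (33.3% called against 18.2% of all genes, median log2 change -0.24, 3 and 0 called without the block). After Pdcd1lg2 came Cd40, with 2.39, 1.94 and 2.45 with IL-4, against 0.14, -0.36 and 0.09 in mock (change 2.30 ± 0.30, adjusted p = 0.000157), Cd274, which encodes PD-L1, with 2.97, 4.17 and 4.35 with IL-4, against 0.86, 2.76 and 1.90 in mock (change 1.99 ± 0.34, adjusted p = 0.00136, 0.119 without the block), and Cd83 (1.91 ± 0.39, adjusted p = 0.00404). Tnfsf9 (-1.42 ± 0.39, adjusted p = 0.0229, 0.193 without the block, -0.39 and not called with normexp) fell. The MHC class II list had 2 calls without IL-4 B or mock A. Calls lost in some of the 6 fits with 1 array left out were those of Ciita (3 fits, 0.0784 without mock C), Rfx5 (3 fits, 0.0744 without mock A), Rfxap (1 fit, 0.0613 without IL-4 A) and Psmb10 (4 fits, 0.102 without IL-4 A). Erap1 (6 fits, 0.0978 without IL-4 B) and Tnfsf9 (4 fits, 0.119 without mock C) lost theirs too.

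Surface receptor genes changed in both directions. Of Fc, lectin and scavenger receptors, 5 of 27 tested members rose and 7 fell (44.4% called against 18.2% of all genes, median log2 change -0.19, 4 and 0 called without the block). Fcgr2b, the inhibitory Fc receptor for IgG, had 5.74, 6.37 and 6.10 with IL-4, against 2.83, 3.85 and 3.07 in mock (change 2.83 ± 0.15, adjusted p = 1.56e-07), and rose with Mgl2 and Mrc1. The platelet-type lectin gene Clec1b (-1.58 ± 0.17, adjusted p = 4.88e-05, 0.255 without the block, -0.93 and not called with normexp) and the scavenger receptor gene Stab1 (-1.15 ± 0.26, adjusted p = 0.00681, 0.762 without the block) fell. Of CD300 and PILR receptors, 1 of 15 tested members rose and 6 fell (46.7% called against 18.2% of all genes, median log2 change -0.39, 0 and 3 called without the block). Cd300e (-1.43 ± 0.24, adjusted p = 0.00101), Pilrb1 (-1.47 ± 0.24, adjusted p = 0.000955), Pilra (-1.15 ± 0.27, adjusted p = 0.0103, 0.221 without the block, -3.60 on its other kept probe), Treml4 (-0.93 ± 0.29, adjusted p = 0.0403, 0.822 without the block, -0.59 and not called with normexp) and Pilrb2 (-0.90 ± 0.18, adjusted p = 0.00347, -4.20 on its other kept probe) fell. The Pilr genes lie close together and are alike in sequence, so signal shared between their probes was not tested. The CD300 and PILR list had 4 calls without IL-4 A and a median of -0.15 without mock C. Leaving out 1 array at a time ended the call of Pilra (1 fit, 0.057 without IL-4 A) and Treml4 (5 fits, 0.188 without mock C).

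Of the NRF2, heme and iron genes, 2 of 31 tested members rose and 9 fell (35.5% called against 18.2% of all genes, median log2 change -0.24, 2 and 4 called without the block). Beside Slc40a1, Hmox1, which breaks down heme, had 2.34, 2.47 and 2.54 with IL-4, against 3.75, 3.42 and 4.08 in mock (change -1.29 ± 0.18, adjusted p = 0.000289), and Nfe2l2, which encodes the regulator NRF2, had 3.93, 4.47 and 3.92 with IL-4, against 5.07, 5.22 and 5.13 in mock (change -1.03 ± 0.15, adjusted p = 0.000385). Tfrc, the transferrin receptor that brings iron into cells, had 1.14, 0.83 and 1.59 with IL-4, against -0.15, -1.10 and -0.14 in mock (change 1.65 ± 0.13, adjusted p = 4.35e-06), and Hfe (1.20 ± 0.20, adjusted p = 0.000891), which encodes a protein that binds it, rose too. The groups did not overlap for any of these 5 genes.

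Lipid genes split. Of the lipid uptake, storage and oxidation genes, 4 of 32 tested members rose and 6 fell (31.2% called against 18.2% of all genes, median log2 change -0.09, 2 and 2 called without the block). The cholesterol exporter gene Abca1 (-1.69 ± 0.28, adjusted p = 0.00105, 0.162 without the block) and Cpt1a (-0.92 ± 0.12, adjusted p = 0.000201), the gate of mitochondrial fatty acid oxidation, fell. Dgat2 (1.70 ± 0.18, adjusted p = 3.87e-05), which makes triglycerides, rose. Of 34 sterol and fatty acid synthesis genes, Fasn (0.74 ± 0.22, adjusted p = 0.0354, 0.342 without the block, 0.41 on its other kept probe) rose and Fads1 (-0.73 ± 0.20, adjusted p = 0.0231, 0.242 without the block) and Acsl3 (-0.69 ± 0.14, adjusted p = 0.00366, 0.155 without the block) fell, a smaller share than over all genes (8.82%). Of 32 glycolysis and pentose phosphate genes 3 rose (9.38%): the glucose transporter gene Slc2a1 (0.71 ± 0.13, adjusted p = 0.00165, 0.506 without the block), Pfkfb1 (0.70 ± 0.13, adjusted p = 0.00264, 0.0943 without the block) and Pdk3 (0.35 ± 0.11, adjusted p = 0.0367, 0.849 without the block). Of 33 lysosome genes, Atp6v0d2 (0.99 ± 0.23, adjusted p = 0.00942, 0.0738 without the block) and Atp6v1b2 (0.60 ± 0.16, adjusted p = 0.0182, 0.299 without the block) rose and Tcirg1 (-0.71 ± 0.16, adjusted p = 0.00848, 0.360 without the block) and Acp2 (-0.47 ± 0.11, adjusted p = 0.0124, 0.615 without the block) fell (12.1% called against 18.2% of all genes). The lipid list had 6 calls without IL-4 B or mock C. In fits without 1 of the 6 arrays no call was made for Fasn (5 fits, 0.158 without mock B), Fads1 (4 fits, 0.11 without mock A), Pdk3 (6 fits, 0.134 without IL-4 B) and Atp6v0d2 (1 fit, 0.0537 without IL-4 B). Atp6v1b2 (3 fits, 0.0954 without mock C), Tcirg1 (1 fit, 0.0528 without IL-4 A) and Acp2 (2 fits, 0.0744 without mock A) lost theirs too.

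Signalling feedback genes were called in both directions. Of MAPK, G protein and kinase feedback genes, 7 of 34 tested members rose and 8 fell (44.1% called against 18.2% of all genes, median log2 change -0.03, 5 and 2 called without the block). After Rasgrp1, Dusp4, a nuclear MAP kinase phosphatase, had 4.43, 4.19 and 4.92 with IL-4, against 0.40, 0.68 and 2.62 in mock (change 3.28 ± 0.29, adjusted p = 7.69e-06). Dusp1, a related phosphatase, went the other way and had -1.36, 0.33 and 0.88 with IL-4, against 0.78, 1.95 and 3.37 in mock (change -2.09 ± 0.34, adjusted p = 0.000844, 0.124 without the block). Trib2 (2.58 ± 0.35, adjusted p = 0.000238, 1.55 and not called with normexp) and Pim3 (2.18 ± 0.19, adjusted p = 6.79e-06) rose. Of immediate early and heat shock genes, Ier3, a survival gene, had 2.73, 3.05 and 3.87 with IL-4, against -1.08, -0.36 and -0.36 in mock (change 3.82 ± 0.29, adjusted p = 2.49e-06), and the chaperone genes Hsph1 (1.50 ± 0.15, adjusted p = 2.09e-05) and Dnaja1 (0.70 ± 0.10, adjusted p = 0.000338, 0.39 to 0.55 on its 2 other kept probes) rose while Ier2 (-0.88 ± 0.21, adjusted p = 0.0113, 0.237 without the block, -0.51 on its other kept probe) fell. Of apoptosis genes, 3 of 28 tested members rose and 2 fell (17.9% called against 18.2% of all genes, median log2 change -0.02, 1 and 1 called without the block). The executioner caspase gene Casp6 had 6.18, 5.25 and 5.58 with IL-4, against 3.27, 2.82 and 2.66 in mock (change 2.75 ± 0.27, adjusted p = 2.17e-05), and Bcl2l11 (1.14 ± 0.28, adjusted p = 0.0111, 0.0759 without the block, 0.37 to 1.20 on its 2 other kept probes) and Bcl2 (1.05 ± 0.31, adjusted p = 0.0323, 0.329 without the block, 0.55 to 0.58 on its 2 other kept probes) also rose, while the BH3-only gene Pmaip1 (-1.33 ± 0.20, adjusted p = 0.000505) and Apaf1 (-0.71 ± 0.13, adjusted p = 0.00250, 0.169 without the block) fell. The apoptosis list had 3 calls without IL-4 B. The calls of Ier2 (2 fits, 0.0643 without mock C), Bcl2l11 (2 fits, 0.0639 without IL-4 B) and Bcl2 (5 fits, 0.162 without mock B) were not made in every fit with 1 array left out.

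Of the growth and vascular factor genes, 8 of 35 tested members rose and 11 fell (54.3% called against 18.2% of all genes, median log2 change -0.24, 4 and 3 called without the block). After Edn1 and Flt1, Hbegf, a ligand of the EGF receptor, had -1.94, -2.23 and 1.11 with IL-4, against -5.08, -5.10 and -4.73 in mock (change 3.95 ± 0.55, adjusted p = 0.000278). The lymphangiogenic factor gene Vegfc had 2.85, 0.84 and 1.84 with IL-4, against 0.46, -1.92 and -0.87 in mock (change 2.62 ± 0.26, adjusted p = 2.09e-05, 0.107 without the block). Kdr, the main VEGF receptor of endothelium, fell and had -3.42, -0.69 and -0.67 with IL-4, against -0.42, 1.50 and 1.68 in mock (change -2.51 ± 0.42, adjusted p = 0.00114, 0.445 without the block). Of adhesion and junction genes, 5 of 31 tested members rose and 4 fell (29.0% called against 18.2% of all genes, median log2 change -0.18, 3 and 1 called without the block). The tight junction gene Cldn11 had -0.25, -1.68 and -1.81 with IL-4, against -6.36, -6.10 and -6.41 in mock (change 5.04 ± 0.43, adjusted p = 6.18e-06). Itgb3 (1.83 ± 0.29, adjusted p = 0.000721) rose, and Itga6 (-1.53 ± 0.19, adjusted p = 0.000135, -2.55 to -1.55 on its 2 other kept probes) and Itga4 (-1.24 ± 0.32, adjusted p = 0.0163, 0.104 without the block, -1.92 to -0.63 on its 5 other kept probes) fell. Of matrix, protease and inhibitor genes, 5 of 30 tested members rose and 5 fell (33.3% called against 18.2% of all genes, median log2 change -0.14, 3 and 2 called without the block), and the fibronectin gene Fn1 (1.49 ± 0.35, adjusted p = 0.00963, 0.548 without the block, well above background on 2 of 3 mock arrays, 0.13 on its other kept probe) rose. The adhesion list had 5 calls without IL-4 B. With each of the 6 arrays left out in turn, calls were lost for Itga4 (4 fits, 0.0922 without IL-4 A) and Fn1 (3 fits, 0.0564 without IL-4 B).

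Of 7 coagulation and prostanoid genes that changed, most rose: 5 of 27 tested members rose and 2 fell (25.9% called against 18.2% of all genes, median log2 change -0.15, 4 and 0 called without the block). Ptgs1, which encodes cyclooxygenase 1, had 4.06, 3.92 and 3.73 with IL-4, against 1.09, 0.51 and 0.36 in mock (change 3.25 ± 0.23, adjusted p = 1.44e-06). The factor X gene F10 had 2.12, 2.75 and 1.95 with IL-4, against 0.31, 0.61 and 0.12 in mock (change 1.92 ± 0.21, adjusted p = 5.17e-05). F7 (0.98 ± 0.19, adjusted p = 0.00246) and Plek (0.99 ± 0.15, adjusted p = 0.000544, 0.0722 without the block) rose and Thbd (-1.57 ± 0.28, adjusted p = 0.00159, 0.0563 without the block), the anticoagulant thrombomodulin gene, fell. Of receptors for nucleotides, lipids and metabolites, 9 of 33 tested members rose and 6 fell (45.5% called against 18.2% of all genes, median log2 change -0.16, 4 and 1 called without the block). P2ry1 (2.11 ± 0.19, adjusted p = 9.11e-06), an ADP receptor, rose, and S1pr1, Gpr84 (-2.01 ± 0.34, adjusted p = 0.00107), Lpar6 (-1.65 ± 0.45, adjusted p = 0.0206, 0.511 without the block) and Lpar1 (-1.31 ± 0.36, adjusted p = 0.0215, 0.0561 without the block, -0.44 and not called with normexp) fell. Of ion and water channels, 7 of 28 tested members rose and 4 fell (39.3% called against 18.2% of all genes, median log2 change -0.12, 5 and 1 called without the block). After Aqp3, the neuronal sodium channel genes Scn3a (5.28 ± 0.35, adjusted p = 8.82e-07, at least 11.0-fold, 2.86 on its other kept probe, 1.80 and not called with normexp) and Scn1a (4.59 ± 0.53, adjusted p = 6.45e-05, at least 10.4-fold, 1.80 and not called with normexp) and the chloride transporter gene Clcn5 (1.72 ± 0.13, adjusted p = 1.94e-06) rose. Neither sodium channel gene was well above background on any mock array. Calls lost in some of the 6 fits with 1 array left out were those of Lpar6 (3 fits, 0.111 without mock A) and Lpar1 (5 fits, 0.104 without mock A).

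Of the circadian genes, 3 of 19 tested members rose and 6 fell (47.4% called against 18.2% of all genes, median log2 change -0.38, 2 and 0 called without the block). Nfil3, a repressor of clock output that also regulates immune cells, had 4.62, 4.26 and 3.73 with IL-4, against 1.10, 1.05 and 0.27 in mock (change 3.40 ± 0.21, adjusted p = 4.36e-07), and Bhlhe40 rose with it. Bhlhe41 (-1.29 ± 0.16, adjusted p = 0.000132, 0.304 without the block, -0.18 and not called with normexp), Rora (-1.07 ± 0.18, adjusted p = 0.00115, 0.452 without the block, -1.78 to -0.98 on its 2 other kept probes) and Per3 (-0.95 ± 0.22, adjusted p = 0.00852, 0.104 without the block, 0.35 and not called with normexp) fell. The core output genes had changes of -0.48 ± 0.24, adjusted p = 0.212 for Dbp, -0.55 ± 0.19, adjusted p = 0.0687 for Nr1d1 and -0.45 ± 0.16, adjusted p = 0.0620 for Per1, and none of these was called. The time of day at harvest was not known, and by the design text IL-4 and mock cells were incubated for different times. Among markers of other cell types, those of basophils, mast cells and eosinophils had 1 rise and 2 falls (12 tested). The histamine-forming enzyme gene Hdc (1.11 ± 0.29, adjusted p = 0.0190, 0.103 without the block) rose. Kit (-1.86 ± 0.34, adjusted p = 0.00201, 0.13 and not called with normexp) fell. So did Ccr3 (-0.40 ± 0.12, adjusted p = 0.0408, 0.676 without the block, 0.25 and not called with normexp). Kit was also the only call among 10 dendritic cell markers tested. Erythroid, megakaryocyte and stromal markers had 0 rises and 1 fall (13 tested). The fall was that of Kitl (-0.80 ± 0.21, adjusted p = 0.0159, 0.339 without the block, -0.47 and not called with normexp). Monocyte markers had 1 rise (Fn1) and 1 fall (Ccr2) among 9 tested. No T, NK and B cell marker (14 tested) or neutrophil marker (11 tested) was called. Leaving out 1 array at a time ended the call of Hdc (3 fits, 0.106 without IL-4 A), Ccr3 (6 fits, 0.157 without IL-4 C) and Kitl (4 fits, 0.092 without IL-4 B).

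**Figure D4:**
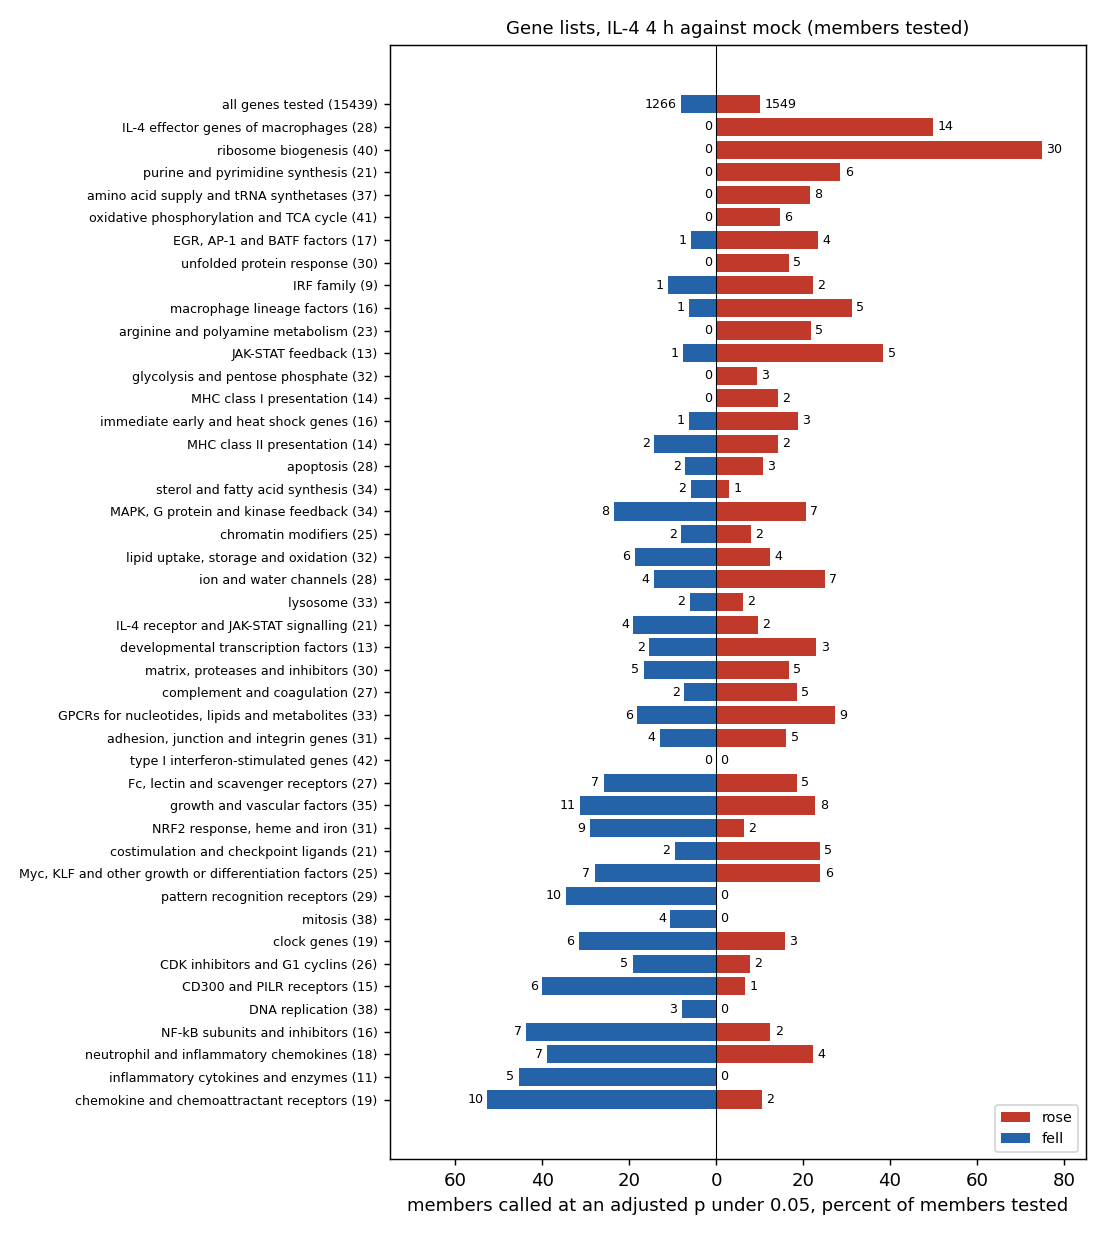
Share of the tested members of each gene list, without the cell type marker lists, that rose (red, right) or fell (blue, left) in percent, with counts at the bar ends, the number tested in parentheses and all genes tested in the top row. Ribosome biogenesis has the largest share of rises, 30 of 40, and chemokine and chemoattractant receptors the largest share of falls, 10 of 19.

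Whether the 4 h response differs between genotypes was tested directly. The Irf4-/- mock and IL-4 4 h arrays of experiment C were on different slides, unlike the other pairs compared. With limma 0 of 15439 genes passed an adjusted p under 0.05 (0%), and 423 had an unadjusted p under 0.05 (2.74%). The change of Retnla was 11.14 in Irf4-/- cells and 11.55 in Irf4+/- cells. That of Arg1 was 9.92 and 8.74, that of Gata3 5.68 and 7.42, and that of Cx3cr1 -3.37 and -3.81. A test that misses the threshold does not show that the genotypes respond alike.

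After 18 h of IL-4 some early changes had grown and others had receded. The 18 h cells were also incubated for longer than the 4 h cells. Time with IL-4 and time of incubation thus cannot be told apart. In experiment C the 4 h and 18 h arrays were on different slides. Over all genes, 790 were higher (5.12%) and 977 lower (6.33%) at 18 h than at 4 h in Irf4+/- cells. Of the 58 genes taken as the largest changes or listed as well-known IL-4, inflammatory or clock genes, as far as tested, 12 were higher and 11 lower at 18 h. Retnla rose further, by 3.99 ± 0.38 (adjusted p = 6.13e-05), Arg1 by 2.25 ± 0.65 (0.0402) and Mgl2 by 2.49 ± 0.23 (5.08e-05). Chil3, not called at 4 h, was 2.23 ± 0.45 higher at 18 h (0.00697). Gata3 had a level of -3.47, -7.10 and -4.95 at 18 h, against 0.87, -1.71 and -0.99 at 4 h, so most of its early rise was gone. Serpina3g, Wdr86, Rasgrp1 and Socs1 were lower at 18 h as well. Fos and Hmox1, which fell at 4 h, were higher at 18 h, and Cx3cr1 was lower still. Cish, Pdcd1lg2 and Cdh1 differed between the times by -1.09, -0.58 and -1.03 (adjusted p = 0.464, 0.560 and 0.0887).

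**Figure D5:**
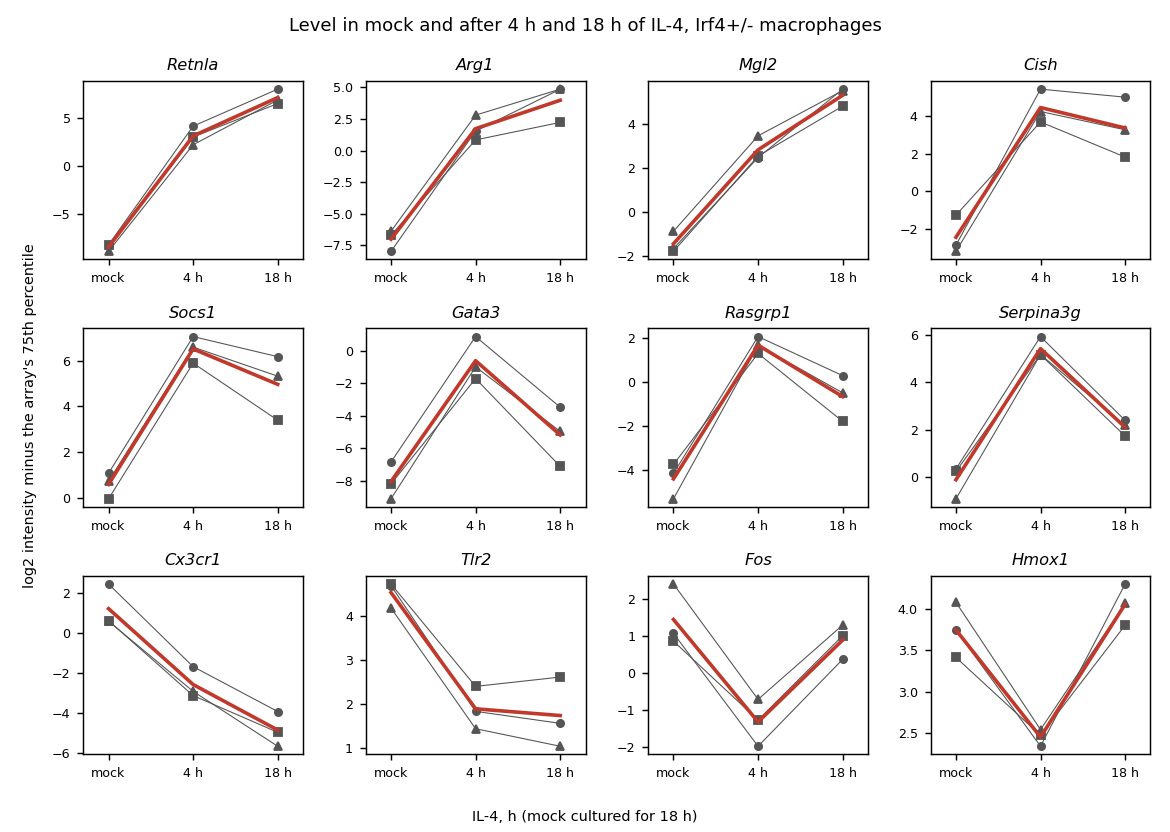
Level of 12 genes in Irf4+/- macrophages without IL-4 and after 4 h and 18 h with it (log2 intensity minus the 75th percentile of the array), with a symbol for each experiment joined by grey lines and the mean of 3 arrays in red. Retnla, Arg1 and Mgl2 are higher at 18 h than at 4 h, Gata3, Rasgrp1, Serpina3g and Socs1 are lower, and Fos and Hmox1 fall at 4 h and stand higher at 18 h.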

How the data were processed

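Total RNA of 18 samples was hybridised to single-colour Agilent arrays, with groups and letters read from titles. Per the file headers, the authors extracted spots with Agilent Feature Extraction 9.5.1, whose deposited intensity is background-subtracted and not scaled between arrays. A deposited log2 table holds each array minus the Irf4+/- mock array of its letter, as its values show, and served as an alternative. Levels here are log2 intensity less the 75th percentile of the array. Control and outlier spots were left out, spots of 1 probe averaged, and a probe was kept if some group had all 3 of its arrays well above background (27505 of 41174). Names came from RefSeq accessions (22951 probes), current symbols (6659), synonyms (3109) or the array files (1915), and 6540 probes had none. Each gene was represented by the brightest of its kept probes on average.

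limma 3.58.1 in R 4.3.3 was fitted to all 18 arrays with 6 group means and the experiment letter as a block (10 residual degrees of freedom, two-sided, Benjamini-Hochberg over 15439 genes). It was also run on simulated data with noise set to a fraction of each gene's spread within a group, and no conclusion is drawn from that run. The pairing comes from the series' design text, and same-letter samples deviated together (lowest correlation 0.317). Precision is limited by having 3 arrays a group. The genes named were the 15 largest rises and falls with the same sign in all letters, without clone or predicted names, 41 well-known genes, and up to 5 called members of each of 51 lists. Members and lists were chosen with earlier results of these data known, and some genes that the rule names are not reported here. Alternatives were no block, fewer arrays, normexp with an offset of 50, median or quantile scaling, other filters, the mean of probes, slide as a block and each array left out. Promoters are RefSeq windows of GRCm38.p6. Python 3.11.15, numpy 2.4.6, pandas 2.3.3 and matplotlib 3.10.9 were used.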

Additional observations from a re-analysis of the deposited data

Results flagged for a closer look

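The level at 18 h of IL-4 differed from that at 4 h in Irf4+/- cells for 23 of the 58 genes compared, by limma at an adjusted p under 0.05. Values are log2, 18 h minus 4 h, with the limits of incubation time and slide given above. Among genes that rose at 4 h, the further rises were 3.99 for Retnla, 2.49 for Mgl2 and 2.25 for Arg1. The declines were -4.56 for Gata3, -3.60 for Wdr86, -3.33 for Serpina3g, -2.35 for Rasgrp1, -1.76 for Il4ra, -1.55 for Socs1 and -0.62 for Odc1. Among genes that fell at 4 h, Cx3cr1 (-2.28), Cxcl10 (-2.13) and Cd14 (-0.84) were lower still at 18 h. Fos (2.21), Kcnj2 (1.64), Hmox1 (1.60), Nap1l2 (1.28), Ccr2 (0.57) and Stat6 (0.40) stood higher at 18 h than at 4 h. Of genes not called at 4 h, Chil3 (2.23), Pparg (1.06) and H2-Aa (0.70) were higher at 18 h, and Isg15 (-1.99) was lower.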

How the results depend on the processing

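Counts of genes moved with several settings. Without the replicate block 658 genes were called, 359 up and 299 down, against 2815 with it. With only the 6 arrays of the comparison 3592 were called, 1750 up and 1842 down, so that falls outnumbered rises. They were 4296 (2106 down) with only the 9 Irf4+/- arrays, 4527 with slide as a block (2354 up and 2173 down), 693 with normexp (378 up and 315 down) and 2179 with median scaling, of which 792 fell. Leaving out 1 array gave 1918 to 2246, and without the mock array of A the interferon list had a median of 0.12. With normexp the median of all genes moved to 0.18, list medians that were below 0 became 0.18 for clock genes, 0.23 for Myc and KLF, 0.16 for developmental factors, 0.44 for costimulation, 0.28 for matrix, 0.29 for metabolite receptors, 0.09 for coagulation and 0.04 for channels, and 7 falls of genes named by rule and described above turned, to 0.25 for Ccr3, 0.60 for Ifnb1, 0.13 for Kit, 0.35 for Per3, 0.16 for Rfx5, 0.46 for Spry3 and 0.19 for Txk. In an alternative chosen after seeing the data, normexp without spots far below their local background, 2535 genes were called and none of these 7 turned, but only Kit and Txk of them were called. Up to 75 such spots lay on an array of the comparison. Of 206 named called genes, 107 kept their call with normexp, 109 without the block, 176 with median scaling, 196 with quantile normalization and 205 with the deposited table. Apart from the 7 and Cxcl11 (0.22) under normexp, no called gene described above turned in direction in these fits. Dim signal limits folds of genes near background in mock. The limma test of the difference between genotypes called 0 genes, with 423 at an unadjusted p under 0.05, and also 0 without the block and with both forms of normexp.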

Other observations

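Among genes that rose, 16 were not well above background on any mock array, and among those that fell, 8 were not well above background on any IL-4 array. Rnase2a, a ribonuclease gene of the eosinophil family named here after its values were seen, differed between experiments, with 3.62, -1.10 and -1.71 with IL-4 in A, B and C, against -2.89, -3.52 and -4.99 in mock. Its change of 4.07 ± 0.76 (limma, adjusted p = 0.00231) was not called without the block (adjusted p = 0.301), and it was called with each array left out in turn, at an adjusted p of at most 0.0168.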
